A study of Homo sapiens with 6 samples.

Results

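Fluoropyrimidine activation and pyrimidine salvage genes were represented by 10 genes, namely UMPS, UCK1, UCK2, UPP1, TYMP, DPYD, PPAT, CDA, SLC29A1 and CMPK1. They were found by gene symbol in the expression table, where all 10 had a row among 17047 genes and all 10 were among the 12959 genes with enough reads to be tested. RNA was sequenced from HCT116, a human colorectal carcinoma line of epithelial origin. The shNC group (n = 3 libraries) had received a non-targeting shRNA, and the PLEK2 knockdown group (n = 3 libraries) an shRNA against PLEK2, a pleckstrin family protein of the membrane and cytoskeleton. The study's methods name the pLKO.1 lentiviral vector for the shRNAs, while the legend of its RNA sequencing figure speaks of retroviruses. The labels name no drug treatment in either group. The study lists 1 PLEK2 shRNA, so the group is a model of a single hairpin, and the labels do not say whether libraries of a group came from separate cultures. P-values therefore measure the spread between these libraries, which may be technical.

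Fluoropyrimidines such as fluorouracil are taken up by cells as bases or nucleosides and act only after conversion to nucleotides. UMPS adds phosphoribose to the base directly, with phosphoribosyl pyrophosphate (PRPP) as the donor, while the salvage route joins ribose through UPP1 and then phosphate through UCK1 or UCK2. TYMP makes the deoxyribonucleoside, which thymidine kinase turns into the inhibitor of TYMS, the thymidylate synthase that is the main target of the drug. DPYD breaks the base down, and CDA deaminates cytidine and deoxycytidine analogs.

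The sequences below show where the hairpin pairs with PLEK2 and which of the 10 genes hold a short match to it. Capitals mark the 7-nt site complementary to bases 2 to 8 of the guide strand. In PLEK2 the site lay in coding exon 2 of 9, at chr14:67397754-67397760 on the minus strand of GRCh38. Among the 10 genes the canonical GENCODE 44 transcripts of 2 held the site and 8 did not. In UMPS it lay in the 3′ UTR within exon 6 of 6 (chr3:124744293-124744299, plus strand), and in SLC29A1 in the coding sequence of exon 8 of 13 (chr6:44230838-44230844, plus strand).
shRNA target: gctggtgtactacAAGCTTGa
PLEK2: tggtgtactacAAGCTTGaggggggtcgg
UMPS: agttcattcttAAGCTTGctttttttgag
SLC29A1: accagcagctcAAGCTTGaaggacccggg

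PLEK2 itself stood at 86.0, 72.6 and 82.9 CPM (read counts scaled to library size, with TMM factors) in shNC replicates 1, 2 and 3. It stood at 16.02, 32.2 and 35.0 CPM in knockdown replicates 1, 2 and 3, so all knockdown libraries were below all shNC libraries and knockdown replicate 1 was the lowest. The log2 fold change was -1.54 (SE 0.244, adjusted p 0.684 in edgeR's quasi-likelihood test with Benjamini-Hochberg adjustment). With the replicate number as a block, the same test gave -1.57 (adjusted p 0.00106). TYMS stood at 199, 148 and 145 CPM in shNC and at 45.7, 76.3 and 77.4 CPM in the knockdown, with a blocked log2 fold change of -1.31 (edgeR adjusted p 0.00333). TYMS counts were non-whole in all 6 libraries, so reads it shares with other transcripts were assigned by estimate. EPCAM, CDH1, KRT8, KRT18 and KRT19 marked the cells as epithelial, with at least 71.6 CPM in every library. Among markers of other cell types, COL1A2 and PECAM1 had at most 1 count and VWF at most 17, PTPRC had no row, and COL1A1 lay at 24.4 to 33.4 CPM.

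None of the 10 genes passed the test at an adjusted p under 0.05 (edgeR quasi-likelihood, Benjamini-Hochberg), where 0% of the 12959 tested genes passed. At an unadjusted p under 0.05 the count was also 0 of 10, against 3.09% of all tested genes (400 genes). DESeq2's Wald test called 12 genes and limma-trend on FPKM called 0, again with no member among them. The 95% interval of the change stayed within 1.5-fold in either direction for 8 of the 10 genes, and reached past it for UPP1 and DPYD. The share of all tested genes within that bound was not counted. Same-numbered libraries deviated together, and with the replicate number as a block 0 of the 10 were called at an adjusted p under 0.05, against 0.849% of all tested genes (110 genes). At an unadjusted p under 0.05 the blocked fit gave PPAT, UPP1 and CDA, 3 of 10, against 18.3% of all tested genes. The median log2 fold change was 0.04 over the members, with 7 above and 3 below 0. It was -0.002 over all tested genes, with 6407 above and 6552 below 0. UMPS, UCK1, UCK2 and SLC29A1 lay at only 0.02 to 0.04. The plot of changes in both fits shows how the block narrows the intervals.

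**Figure D1:**
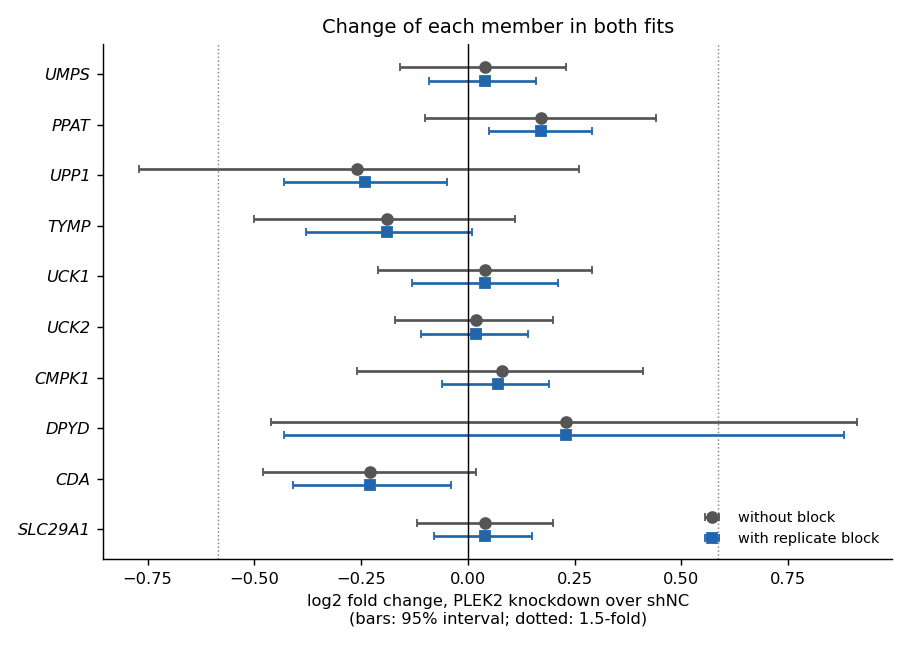
Log2 fold change of each gene, PLEK2 knockdown over shNC (x axis), without the replicate block (grey circles) and with it (blue squares); bars are 95% intervals and dotted lines mark 1.5-fold. Without the block every interval includes 0, and with it those of PPAT, UPP1 and CDA do not, although none of the 3 passed after adjustment.

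SLC29A1, the equilibrative nucleoside transporter that carries nucleosides and their analogs across the plasma membrane, had the narrowest range over the libraries of the 10. It was annotated at chr6:44219553-44234142 (plus strand, GRCh38). It gave 140.6, 138 and 138 CPM in shNC replicates 1 to 3 and 140.1, 141 and 147 CPM in the knockdown. The highest library was 1.06 times the lowest, and the groups overlapped. The change on the log2 scale was 0.04 (SE 0.071, 95% interval -0.12 to 0.20, edgeR adjusted p 0.969). Its paralog SLC29A2 gave 83.2, 85.7 and 89.5 CPM in shNC and 78.0, 73.7 and 78.4 CPM in the knockdown, without overlap of the groups (log2 fold change -0.17, adjusted p 0.968 without and 0.155 with the block, edgeR). Per transcript length, SLC29A1 was 2.04 to 2.25 times SLC29A2 in shNC and 2.40 to 2.49 times in the knockdown, in FPKM (reads scaled to transcript length and library size).

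UMPS and PPAT, the members that use PRPP, showed small differences between the groups. UMPS, which makes orotidylate and then uridylate and also converts fluorouracil, lies at chr3:124730433-124749273 (plus strand). It gave 73.7, 71.9 and 65.8 CPM in shNC and 76.4, 71.6 and 68.9 CPM in the knockdown. The groups overlapped, with replicate 1 the highest library in each. Its log2 fold change was 0.04 (SE 0.086, 95% interval -0.16 to 0.23, edgeR adjusted p 0.975). The value was also 0.04 for SLC29A1, the other member with the 7-nt site. The 8 members without the site ran from -0.26 (UPP1) to 0.23 (DPYD), and an effect of the site was not tested.

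PPAT, the amidotransferase that spends PRPP on the first committed step of purine synthesis, lies at chr4:56393362-56435615 (minus strand). It gave 129.6, 114 and 104 CPM in shNC and 151, 123 and 118 CPM in the knockdown. The groups overlapped, but each knockdown library was above the shNC library of its number, with log2 ratios of 0.22, 0.11 and 0.18 in pairs 1, 2 and 3. Its log2 fold change was 0.17 (SE 0.12, 95% interval -0.10 to 0.44, edgeR adjusted p 0.968). The block gave 0.17 with an SE of 0.054 (unadjusted p 0.00807, edgeR adjusted p 0.134). PAICS, a purine synthesis enzyme read in the opposite direction from the other side of the same promoter region, had a blocked log2 fold change of 0.08 (edgeR adjusted p 0.419).

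The sequences upstream of PPAT and CDA are given because PPAT had the lowest p-value of the 10 with the block and CDA without it. Each is 250 bases before the RefSeq gene start on GRCh38.p14, with any E-box CACGTG and GC box GGGCGG (either strand) in capitals. The PPAT window is chr4:56435616-56435865 on the minus strand, and spans the gap to PAICS. PAICS starts at 56435741 on the plus strand, so the first part of the window, with its E-box, lies inside PAICS. The CDA window is chr1:20588847-20589096 on the plus strand.
PPAT: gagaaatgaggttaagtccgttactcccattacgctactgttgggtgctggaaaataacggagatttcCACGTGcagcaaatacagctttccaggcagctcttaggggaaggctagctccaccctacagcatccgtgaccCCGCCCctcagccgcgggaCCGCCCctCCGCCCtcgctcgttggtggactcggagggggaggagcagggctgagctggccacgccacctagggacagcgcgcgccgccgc
CDA: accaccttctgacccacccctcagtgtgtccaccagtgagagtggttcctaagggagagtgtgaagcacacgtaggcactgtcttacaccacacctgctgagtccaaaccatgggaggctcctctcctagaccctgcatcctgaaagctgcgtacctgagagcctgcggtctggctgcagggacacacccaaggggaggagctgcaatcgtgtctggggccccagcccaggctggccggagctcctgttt
PPAT held 1 E-box and 3 GC boxes, and CDA held neither motif. A gene with more than 1 RefSeq start had more than 1 window, and was counted if any of them held the motif. Over 35116 such windows of 27305 genes, 7.73% of genes held an E-box and 46.2% a GC box. Among the 10 genes, PPAT and SLC29A1 held an E-box, and 6 held a GC box (PPAT, UPP1, TYMP, UCK2, DPYD and SLC29A1). The SLC29A1 window chr6:44223345-44223594 held no E-box, and the UPP1 window chr7:48088454-48088703 no GC box. The CCAAT box, CCAAT on either strand, was in the windows of TYMP and UCK2 (37% of all genes), and TATAAA was in none of the 10 (13% of all genes).

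For the phosphorylases UPP1 and TYMP the shNC libraries were spread more widely than the group means were apart, with shNC at 28.7 ± 8.78 and 24.2 ± 3.84 CPM (SD, n = 3) and the knockdown at 24.0 ± 4.57 and 21.2 ± 1.05 CPM. UPP1, the uridine phosphorylase that joins ribose to uracil or fluorouracil, lies at chr7:48088628-48108736 (plus strand). It gave 37.4, 28.9 and 19.8 CPM in shNC and 27.2, 26.1 and 18.8 CPM in the knockdown. The groups overlapped and replicate 3 was the lowest library in each, while each knockdown library was below the shNC library of its number (log2 ratios of -0.46, -0.15 and -0.07). The change on the log2 scale was -0.26 (SE 0.228, 95% interval -0.77 to 0.26, edgeR adjusted p 0.968), and with the block -0.24 (unadjusted p 0.0169, edgeR adjusted p 0.176). The value rested on single libraries, since it was -0.01 without shNC replicate 1, -0.11 without knockdown replicate 3 and -0.45 without shNC replicate 3, in fits without the block.

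TYMP, the thymidine phosphorylase that makes fluorodeoxyuridine and also activates capecitabine products, lies at chr22:50525752-50530032 (minus strand). It gave 19.8, 26.3 and 26.6 CPM in shNC and 20.1, 21.4 and 22.2 CPM in the knockdown. Replicate 1 was the lowest in each group, and the groups overlapped through shNC replicate 1 alone. The change on the log2 scale was -0.19 (SE 0.134, 95% interval -0.50 to 0.11, edgeR adjusted p 0.968), and with the block the adjusted p was 0.286. TYMP overlaps SCO2, a copper chaperone gene, on the same strand over 710 bases, and its counts were non-whole in 4 of the 6 libraries, so its level is uncertain. It also overlaps ODF3B over 323 bases on the same strand. The sum of TYMP and SCO2 was 37.4, 52.2 and 50.3 CPM in shNC and 36.0, 47.1 and 45.3 CPM in the knockdown, with shNC replicate 1 again below all but 1 of the other libraries.

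**Figure D2:**
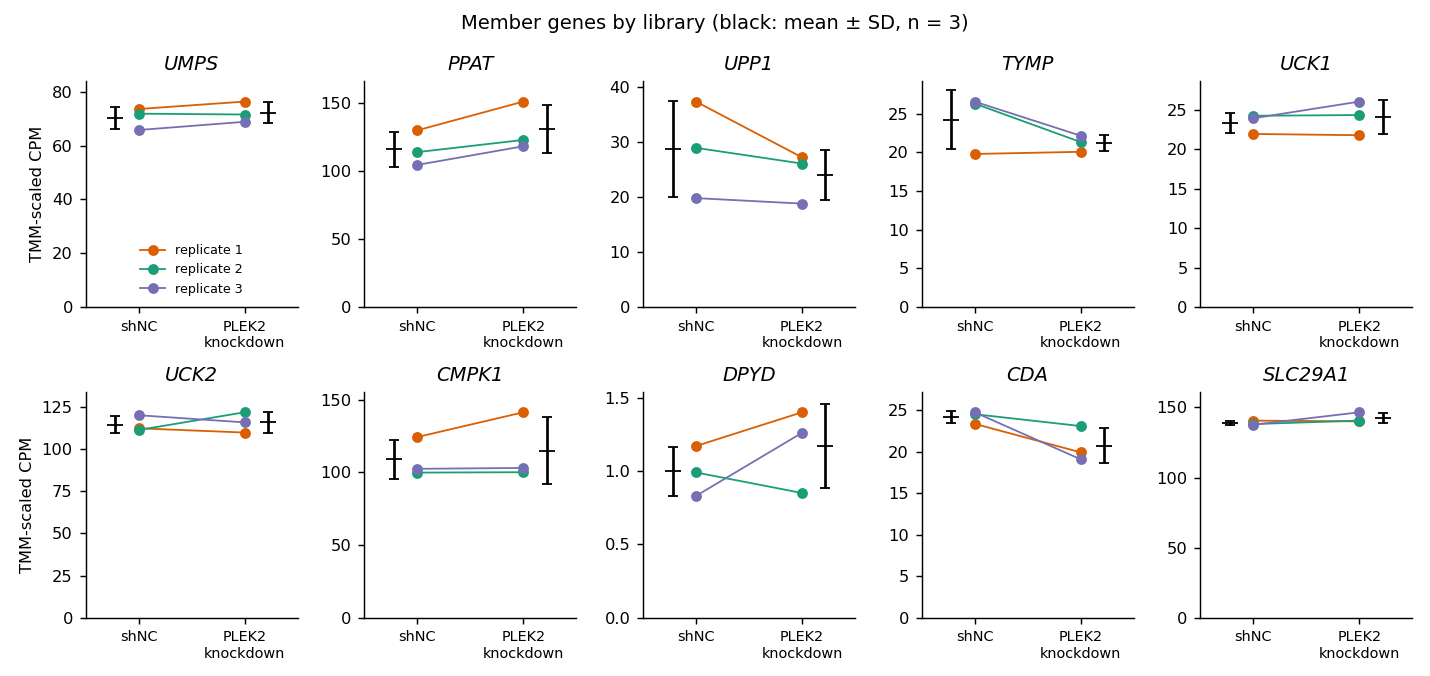
CPM of each gene (y axis from 0) in shNC and PLEK2 knockdown libraries, joined by replicate number; black marks are the mean ± SD (n = 3). CDA is the 1 gene whose groups do not overlap, and replicate 1 stands above replicates 2 and 3 in both groups for UMPS, PPAT and CMPK1.

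The kinases UCK1, UCK2 and CMPK1 had changes near 0. UCK1 and UCK2 phosphorylate uridine and cytidine and their fluorinated forms. UCK1 (chr9:131523801-131531264, minus strand) gave 21.97, 24.3 and 24.0 CPM in shNC and 21.8, 24.4 and 26.1 CPM in the knockdown. UCK2 (chr1:165827614-165911618, plus strand) gave 112, 111 and 120.0 CPM in shNC and 109.7, 122 and 116 CPM in the knockdown. The groups overlapped for both genes. Its log2 fold change was 0.04 for UCK1 (SE 0.109, 95% interval -0.21 to 0.29, edgeR adjusted p 0.979). For UCK2 it was 0.02 (SE 0.08, 95% interval -0.17 to 0.20, edgeR adjusted p 0.991). Per transcript length UCK2 was 1.88 to 2.18 times UCK1 over the 6 libraries, in FPKM. The related UCKL1 gave 49.8, 54.0 and 52.8 CPM in shNC and 47.1, 45.4 and 46.9 CPM in the knockdown. Its groups did not overlap (log2 fold change -0.17, adjusted p 0.968 without and 0.189 with the block, edgeR). The sources do not state stranded counting, and without it reads of overlapping genes cannot be told apart. UCK2 overlaps TMCO1 over 142 bases and UCK1 overlaps POMT1 over 6 bases, both on the opposite strand. Counts of UCK1 and UCK2 were whole in all 6 libraries, without a visible split of shared reads.

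CMPK1, which phosphorylates uridylate, cytidylate and deoxycytidylate, lies at chr1:47333790-47394866 (plus strand). It gave 124, 99.8 and 102 CPM in shNC and 141, 100.1 and 103 CPM in the knockdown. Replicate 1 was the highest library in each group and the other libraries lay within 99.8 to 103 CPM. The log2 fold change was 0.08 (SE 0.147, 95% interval -0.26 to 0.41, edgeR adjusted p 0.969). Its mitochondrial paralog CMPK2 was low, with 24 to 36 counts per library, and CMPK1 was 44.4 to 95.8 times CMPK2 in FPKM.

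Of the genes that remove drug or nucleoside, DPYD was scarcely detected and CDA was lower in the knockdown libraries without passing the test. DPYD, the dihydropyrimidine dehydrogenase that starts fluorouracil breakdown, lies at chr1:97077743-97995000 (minus strand). It gave 18, 14 and 12 counts in shNC and 22, 13 and 19 counts in the knockdown. The groups overlapped, and an exact Poisson 95% interval on the lowest library ran from 6.2 to 21 counts, for counting error only. The log2 fold change was 0.23 (SE 0.302, 95% interval -0.46 to 0.91, edgeR adjusted p 0.968), so a change of up to 1.88-fold upward lay inside the interval and could not be told from none at this depth. The FPKM of DPYD also moved with the transcript length behind it, which ran from 2213 to 4380 bases between libraries. Its gene span overlaps DPYD-AS1 over 227033 bases on the opposite strand and MIR137HG over 61527 bases on the same strand. Neither had a row, and whether reads from them entered so low a count was not tested.

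CDA, cytidine deaminase, which inactivates deoxycytidine analogs such as gemcitabine and takes part in capecitabine conversion, lies at chr1:20589086-20618903 (plus strand). It gave 23.3, 24.5 and 24.7 CPM in shNC and 19.9, 23.1 and 19.1 CPM in the knockdown. CDA was the 1 of 10 genes whose groups did not overlap, against 9.21% of all tested genes, and knockdown replicate 2 lay just under shNC replicate 1. In counts, knockdown replicate 2 had 351 (exact Poisson 95% interval 315.2 to 389.7) and shNC replicate 1 had 358 (321.9 to 397.1). The gap between these nearest libraries thus lay inside counting error. Knockdown replicates 1 and 3 had 313 (279.3 to 349.7) and 288 (255.7 to 323.3) counts, against 347 to 358 in shNC. With 3 against 3 libraries a two-sided exact permutation test cannot go below 0.1. The change on the log2 scale was -0.23 (SE 0.11, 95% interval -0.48 to 0.02, unadjusted p 0.0717, edgeR adjusted p 0.968). The block gave -0.23 (unadjusted p 0.0196, edgeR adjusted p 0.185). Reads come from whole cultures, so fewer cells expressing a gene and less RNA per cell cannot be told apart.

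Libraries also differed by replicate number. The sign of the change was the same in all 3 numbered pairs for 4 of 10 members (PPAT and CMPK1 higher, UPP1 and CDA lower), against 40.9% of all tested genes, although the CMPK1 ratio was near 0 in pairs 2 and 3. The replicate number term of the blocked fit passed an adjusted p under 0.05 for PPAT (0.00549), UPP1 (0.00142) and CMPK1 (0.00187, edgeR quasi-likelihood), 3 of 10, against 28.4% of all tested genes. Replicate 1 lay above replicates 2 and 3 of both groups for UMPS, PPAT and CMPK1, and below them for TYMP and UCK1. The share of all tested genes set apart in this way was not counted, so it is not read as particular to the members. Over 10161 genes the deviations of the replicate 1 libraries from their group means correlated at 0.736. For CMPK1 its log2 ratio to the mean of the others was 0.30 in shNC and 0.48 in the knockdown.

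Levels were compared between genes per transcript length. In shNC the order of mean FPKM ran SLC29A1 (66.4), CMPK1 (38.5), PPAT (32.1), CDA (29.2), UCK2 (23.6), TYMP (15.3), UPP1 (11.6), UCK1 (11.4), UMPS (10.5) and DPYD (0.34). SLC29A1 was at the 92.8th percentile of the table and DPYD at the 25.4th. Neighbours whose shNC libraries overlapped were CMPK1 and PPAT, PPAT and CDA, TYMP and UPP1, UPP1 and UCK1, and UCK1 and UMPS. In the knockdown the order was the same except that UPP1 came after UCK1 and UMPS. UPP1 also moved ahead of TYMP when CPM was divided by the canonical transcript length. That length was 1664 bases for UPP1, while the length behind its FPKM ran from 2393 to 2846 bases between libraries. UMPS was 24.4 to 49.7 times DPYD in FPKM. TYMS was 9.46 to 12.5 times UMPS in shNC and 2.78 to 5.19 times in the knockdown.

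**Figure D3:**
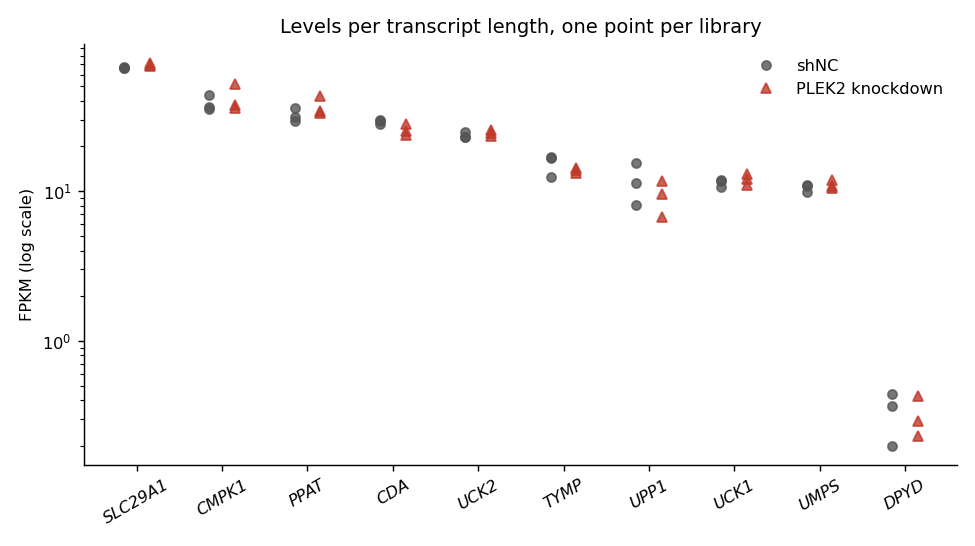
FPKM on a log axis (y) of the 10 genes in order of their shNC mean, with 1 point per library (grey circles shNC, red triangles PLEK2 knockdown). SLC29A1 is highest in every library, and DPYD, at 0.20 to 0.44 FPKM, lies far under the other 9 genes.

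The other enzymes and transporters of pyrimidine metabolism were counted in the same way. Of a list of 58, 57 had a row and 49 were tested. The count at an adjusted p under 0.05 was 0 of 49 in edgeR's quasi-likelihood test with and without the block. At an unadjusted p under 0.05 it was 1 of 49 without the block (NME3, against 3.09% of all tested genes) and 14 of 49 with it (5 higher and 9 lower, against 18.3%). The groups did not overlap for 8 of 49 (2 higher and 6 lower), against 9.21% of all tested genes. The sign was the same in all 3 numbered pairs for 28 of 49 (13 higher and 15 lower), against 40.9%. The median log2 fold change of the list was 0.01, with 25 above and 24 below 0.

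Among the genes of the list with the smallest p-values, NME3 and NME4 supply nucleoside triphosphates, DCK phosphorylates deoxycytidine and RRM2B is the p53-inducible ribonucleotide reductase subunit. NME3 gave 23.3, 24.3 and 28.3 CPM in shNC and 20.6, 22.3 and 19.9 CPM in the knockdown (log2 fold change -0.28, edgeR adjusted p 0.968). RRM2B gave 58.4, 36.5 and 33.0 CPM in shNC and 79.3, 40.9 and 39.4 CPM in the knockdown. Its groups overlapped, each knockdown library was above its numbered shNC library, and the blocked log2 fold change was 0.30 (SE 0.07, edgeR adjusted p 0.0674). The blocked value was 0.21 for DCK (edgeR adjusted p 0.114), 0.21 for the efflux transporter ABCC5 (edgeR adjusted p 0.156) and -0.19 for NME4 (edgeR adjusted p 0.203).

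**Figure D4:**
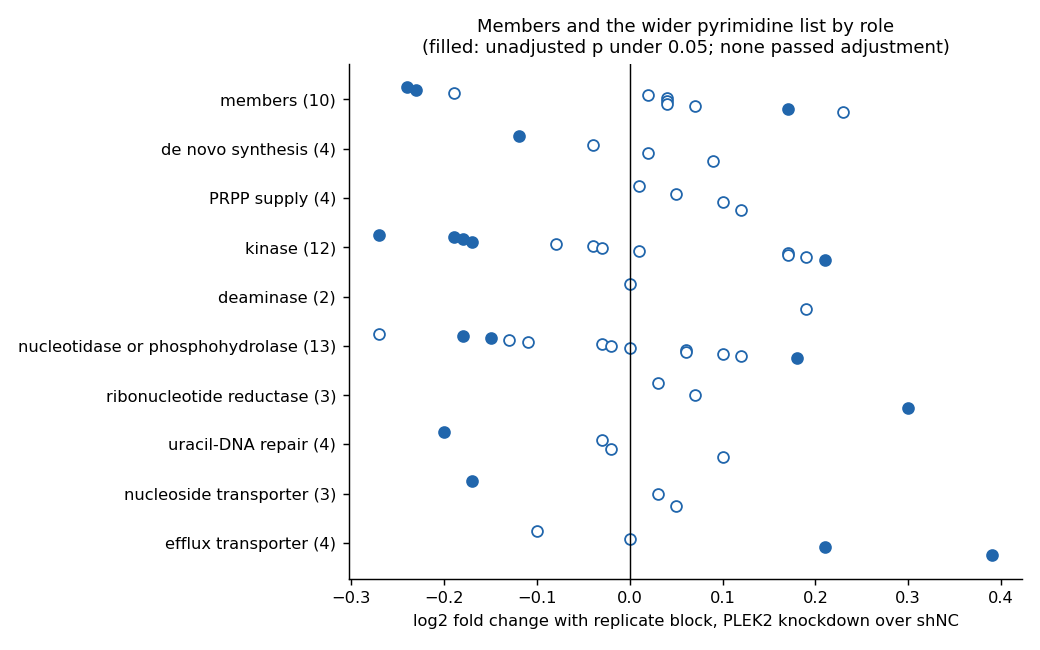
Blocked log2 fold change (x axis) of the 10 genes and of the 49 tested genes of the wider pyrimidine list, grouped by role with the number of genes in brackets; filled points had an unadjusted p under 0.05. Values lie between -0.27 and 0.39, and no point passed after adjustment.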

How the data were processed

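Poly(A) RNA of 6 HCT116 libraries was read as single-end 50-base reads. The deposited table holds estimated counts (RSEM expected counts) and FPKM per gene. The authors' processing notes list HISAT2 2.0.4, Bowtie2 2.2.5, RSEM 1.2.12 and DESeq2 1.4.5, and the mouse build GRCm38.p6, although symbols and gene IDs are human, so the build behind the counts is unclear. Reads shared between transcripts are split by estimate, and the strand setting of the counting is not given in the sources used here. Positions are from GENCODE 44 on GRCh38 and promoter windows from RefSeq on GRCh38.p14, in which all 10 genes matched.

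Library totals ran from 14377532 to 15602732 counts. Counting error was largest relative to the level for DPYD. It was not negligible for UPP1, TYMP, UCK1 and CDA, which had 284 to 573 counts per library. Counts were rounded, filtered with filterByExpr (12959 of 17047 genes kept) and scaled by TMM. The 2 groups were compared with edgeR 4.0.16 (R 4.3.3), quasi-likelihood test, Benjamini-Hochberg adjustment over all tested genes and a threshold of 0.05. Pair ratios were computed with 0.1 CPM added. Libraries were paired by replicate number in the blocked fit. Deviations from group means over 10161 genes correlated at 0.736, 0.558 and 0.554 between same-numbered libraries and at -0.629 to 0.358 between others. Between numbers 2 and 3 the values were 0.358 and 0.355. Replicate 1 was thus set apart more clearly than numbers 2 and 3 were from each other. The pairing rests on these values and the shared numbers, since no source states a shared day. Alternatives were the block, other scalings and filters, DESeq2 1.42.0, limma 3.58.1 and leaving out each library. Columns of the authors' group averages were not used.

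The 10 genes and the wider list were chosen with earlier results of these data known. Named from the wider list were its 5 smallest p-values in each fit, any gene with an adjusted p under 0.05, and close paralogs of the members. UPP2 had no row.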

Additional observations from a re-analysis of the deposited data

How the results depend on the processing

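Each member's log2 fold change was recomputed under 20 alternatives. Of the 200 values, 193 kept their direction and their side of the threshold, none passed an adjusted p under 0.05, and 7 changed sign. Those were DPYD at -0.02 and -0.05 (limma-trend on log2 of FPKM + 1 and FPKM + 0.1), UMPS at 0 and CMPK1 at -0.10 without knockdown replicate 1, UCK2 at -0.02 without knockdown replicate 2 and at -0.03 with the replicate block and number 2 left out, and UCK1 at -0.02 without knockdown replicate 3. Over all fits that left out a library or number, the values ran from 0 to 0.08 for UMPS, -0.02 to 0.11 for UCK1, -0.03 to 0.06 for UCK2, -0.10 to 0.20 for CMPK1, 0.02 to 0.06 for SLC29A1, 0.05 to 0.27 for PPAT, -0.45 to -0.01 for UPP1, -0.31 to -0.11 for TYMP, 0.07 to 0.42 for DPYD and -0.31 to -0.15 for CDA. The UPP1 value of -0.01 and the TYMP value of -0.31 came without shNC replicate 1, and the PPAT value of 0.05 without knockdown replicate 1. At an adjusted p under 0.05 the replicate block took the calls from 0 to 110 genes, PLEK2 and TYMS among them. It changed no call of a member or of the wider list. The smallest adjusted p of a member was 0.0775, for PPAT with the replicate block and library totals.

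Members under an unadjusted p of 0.05 numbered 0 without the replicate block. They numbered 3 with it, 3 with it and library totals, 3 with it and DESeq2's size factors, and 1 (PPAT) with it and DESeq2's Wald test. The share of all tested genes was 3.09% without the block and 18.3% with it, and is not given for the other settings. At an adjusted p under 0.05 the blocked fits called from 18 genes, without number 2, to 528 genes, without number 1. The member counts of the other settings therefore cannot be set against a share of all genes. Leaving out 1 library or number gave 0 to 3 members: TYMP appeared without shNC replicate 1, UPP1 without shNC replicate 3 and CDA without knockdown replicate 2. With the block, leaving out number 1 brought in TYMP (p 0.0051) and lost UPP1 (p 0.243) beside CDA and PPAT, leaving out number 2 gave CDA, PPAT and UPP1, and leaving out number 3 gave PPAT and UPP1 and lost CDA. Of the wider list, 1 gene (RRM2B) passed an adjusted p under 0.05 with the block and library totals, and 0 to 1 (RRM2B) when 1 library or number was left out, the 1 coming with the block and without number 3. The cause of these differences was not tested. The replicate number term was added after seeing the data. Depth limits most what can be said of DPYD and CMPK2, which had 12 to 36 counts per library.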
